A study of Mus musculus with 8 samples.

Results

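The maturation effect common to both subsets of thymic dendritic cells was estimated from all 8 of the 8 arrays in the series, 4 of mature and 4 of immature cells, with the Sirpa status of the cells as an additive term. The cells were sorted from mouse thymus into 4 groups of 2 arrays each, named here by the array number in the title: Sirpa-positive mature (arrays 1 and 6), Sirpa-positive immature (arrays 3 and 5), Sirpa-negative mature (arrays 2 and 8) and Sirpa-negative immature (arrays 4 and 7). No genotype, treatment, strain or age sets one group apart in the labels, and the sources used here do not give the strain, the sort markers of maturation or the number of mice. Sirpa is an inhibitory surface receptor that marks the myeloid-like subset of thymic dendritic cells. The labels do not say that the paired arrays of a group were made from different animals or sorts. The p-values therefore reflect no more than the variation among these 8 samples, which could be technical.

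Dendritic cells carry antigen to developing thymocytes, and in the thymus they help to delete self-reactive thymocytes and to generate regulatory T cells. When they mature they raise the chemokine receptor Ccr7, costimulatory ligands and surface MHC, lower antigen uptake, and leave the cell cycle. Ligation of the receptor Cd40 by its ligand on T cells activates NF-kB factors through TRAF adaptors, and is one route to that state. Single-subset comparisons of 2 against 2 arrays resolve large changes of this programme, and the additive fit asks which smaller changes both subsets share.

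Each value below is a log2 level, the processed Cy3 signal of a probe relative to the 75th percentile of its array, so a level of 0 is that percentile, or a log2 difference of such levels, mature minus immature, with its standard error (SE, n = 4 against 4 arrays). The 75th percentiles lay between 147 and 313 intensity units, 52.9% to 65.5% of probes were well above background, and no spot was saturated. The share was 61.9% to 65.5% in the first slide row and 52.9% to 57.9% in the second, and each row held 1 array of every group. A gene passed where its adjusted p from limma, with Benjamini-Hochberg adjustment over all 24171 genes or accessions tested, was under 0.05. Of these, 13890 carried a symbol.

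The labels were checked first against Sirpa and against known genes of maturation and of dendritic cell identity. Ccr7 stood at 5.21, 5.22, 6.2 and 5.62 in mature arrays 1, 6, 2 and 8, and at -0.45, -1.45, 1.15 and -0.70 in immature arrays 3, 5, 4 and 7. The difference was 5.93 ± 0.41 (adjusted p = 0.000113, limma), and every mature array was above every immature array. Cd40 stood at 5.30, 5.08, 5.98 and 5.11 in the mature arrays, in the same order, and at 3.24, 2.82, 2.55 and 2.47 in the immature arrays, a difference of 2.60 ± 0.26 (adjusted p = 0.000547, limma). Sirpa itself stood at 3.96 to 4.68 in the 4 Sirpa-positive arrays and at -2.24 to -0.52 in the 4 Sirpa-negative arrays. Of 16 genes of conventional dendritic cell identity, Ckb, a creatine kinase, fell by 2.03 ± 0.33 (adjusted p = 0.00434, limma), and no other member passed. The median difference of the list was 0.05, and -0.05 under median scaling, and its summed level was 1299 to 1936 times the 75th percentile in mature and 1264 to 2126 times in immature arrays. Lineage markers were listed apart from these genes. In the type 1 list 7 genes fell and 2 rose, and in the type 2 list 6 fell and 2 rose. Over all alternatives the falls numbered 0 to 7 in either list. The type 2 marker Cd209a fell by 4.26 ± 0.19 (adjusted p = 2.32e-05, limma).

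In the pooled fit 4985 genes passed, which is 20.6% of those tested: 2482 rose (10.3%) and 2503 fell (10.4%), so that rises made up 49.8% of the calls. Scaling each array to its median in place of its 75th percentile moved the median difference of all genes from 0.02 to -0.09 and gave 2030 rises and 3124 falls, or 39.4% rises. On the same genes the comparison within Sirpa-positive cells called 1663 genes (6.88%) and that within Sirpa-negative cells 3969 (16.4%). The pooled fit and the subset comparisons share all their arrays, so their values are set side by side and are not independent. The median SE was 0.199 in the pooled fit and 0.269 in a subset comparison. The smallest difference that passed was 0.42, or 1.34-fold, in the pooled fit, against 0.79 (1.73-fold) in Sirpa-positive and 0.66 (1.58-fold) in Sirpa-negative cells.

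Of the genes that passed, 2405 changed less than 2-fold, 914 upward and 1491 downward, and 2580 changed 2-fold or more, 1568 upward and 1012 downward. The additive fit called 1445 genes that neither subset comparison called, and 253 of them changed 2-fold or more. The remaining 1192 passed in the pooled fit only, with a change under 2-fold and of the same sign in both subsets; they are called modest shared changes here. Their median size was 0.66, or 1.58-fold. Of these, 439 rose (1.82% of the genes tested) and 753 fell (3.12%), and median scaling gave 347 rises and 1020 falls. With the slide row as a block, 610 of these 1192 genes still passed. Leaving out array 1 reduced the modest shared changes to 610 and leaving out array 5 to 690. Leaving out any other array gave 903 to 1484, and no array left out moved the count of all calls by more than 1.5 times (3398 to 5085).

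**Figure D1:**
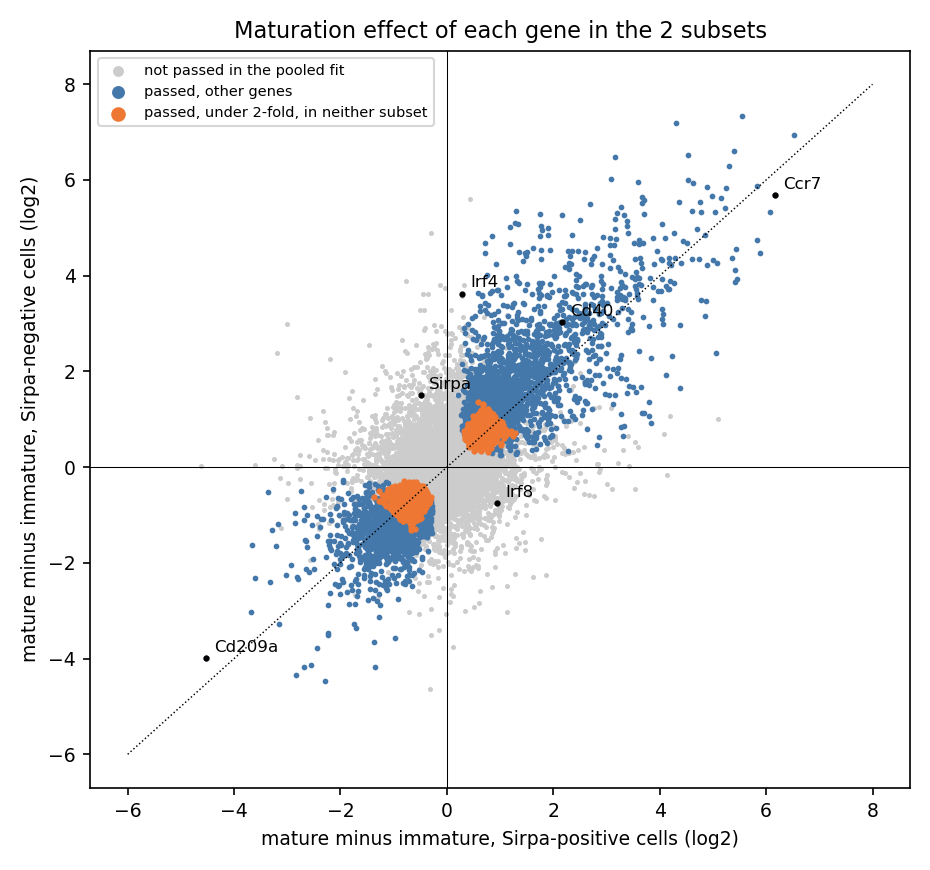
Each point is a gene, with its mature minus immature log2 difference in Sirpa-positive cells (x axis) and in Sirpa-negative cells (y axis), and the dotted line marks equal differences. Blue and orange points passed in the pooled fit, and the 1192 orange points, which changed less than 2-fold and passed in neither subset, lie by definition in the 2 quadrants of equal sign and near the centre; Irf4, Sirpa and Irf8 lie far from the line.

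The modest rises were taken by the smallest pooled p among genes with a symbol, a signal well above background on all 8 arrays and no overlap of mature and immature arrays within either subset. That choice, from genes that missed in both subset comparisons, puts their subset p-values just above the threshold. The 10 genes were Nek6, Kansl1, Papolg, Gtpbp4, Ankrd12, Zmym2, Gimap1, Wdtc1, Phc3 and Psmd10, and their differences ran from 0.66 to 0.98. Nek6, a kinase of the mitotic spindle, stood at 3.25 and 3.60 in Sirpa-positive mature arrays 1 and 6 against 2.42 and 2.66 in immature arrays 3 and 5. In Sirpa-negative cells it stood at 4.31 and 4.23 in mature arrays 2 and 8 against 3.51 and 3.55 in immature arrays 4 and 7. Sirpa-negative arrays were higher in both states, and the step between states was close in size: 0.89 in Sirpa-positive cells (adjusted p = 0.0536, limma) and 0.74 in Sirpa-negative cells (adjusted p = 0.0542, limma). Pooled, Nek6 rose by 0.82 ± 0.15 (adjusted p = 0.00628, limma). The difference between the subset effects was 0.14, with a 95% interval from -0.56 to 0.85, so a difference of that size between subsets was not detectable with these arrays.

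Several of the modest rises were chromatin and RNA-processing genes. Kansl1, the scaffold of the NSL histone acetyltransferase complex, stood at 2.71, 2.87, 2.77 and 2.69 in mature arrays 1, 6, 2 and 8 and at 2.05, 2.08, 2.11 and 2.06 in immature arrays 3, 5, 4 and 7. Its 2 groups of 4 did not overlap, its levels were nearly the same in both subsets, and it rose by 0.69 ± 0.13 (adjusted p = 0.00703, limma). Phc3, a subunit of Polycomb repressive complex 1, stood at -0.16, -0.13, 0.07 and -0.27 in the mature arrays and at -0.85, -1.05, -1.23 and -0.72 in the immature arrays, and rose by 0.84 ± 0.17 (adjusted p = 0.00984, limma). Zmym2, a zinc finger partner of the LSD1 corepressor complex, rose by 0.90 ± 0.18 (adjusted p = 0.00887, limma). Papolg, a nuclear poly(A) polymerase, rose by 0.86 ± 0.16 (adjusted p = 0.00755, limma), and the mature and immature arrays of both subsets stood apart, at -0.88 to -1.61 and -1.70 to -2.37. Among 50 chromatin modifiers as a whole 6 rose and 5 fell, close to the share among all genes, with a median of 0.09 that turned to -0.02 under median scaling. The risen members of smallest p were the histone demethylases Kdm4a (1.07), Kdm2b (1.16) and Kdm5b (1.33), and the fallen ones were the demethylase Kdm7a, the oxygenase Tet3 (-0.81) and the methyltransferase Dnmt3b (-0.96).

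Psmd10, which helps to assemble the regulatory particle of the proteasome, stood at 3.02, 2.77, 2.69 and 2.77 in mature arrays 1, 6, 2 and 8 and at 2.13, 2.24, 2.17 and 2.08 in immature arrays 3, 5, 4 and 7. It rose by 0.66 ± 0.13 (adjusted p = 0.0104, limma) with no overlap of the 2 states. Gtpbp4, a nucleolar GTPase of large ribosomal subunit assembly, stood at 0.84, 0.59, 1.12 and 0.86 against 0.00, -0.05, 0.26 and 0.29 and rose by 0.73 ± 0.14 (adjusted p = 0.00796, limma). Wdtc1, a WD-repeat protein, rose by 0.72 ± 0.14, and Ankrd12, an ankyrin-repeat nuclear protein, by 0.72 ± 0.14 (adjusted p = 0.00912 and 0.00862, limma). Gimap1, a GTPase that lymphocytes need for survival, rose by 0.98 ± 0.19 (adjusted p = 0.00899, limma), from -0.59, -0.03, -0.80 and -0.67 to 0.42, 0.96, 0.08 and 0.38. T cell marker RNA moved in the same direction, as given below, and its part in the rise of Gimap1 was not tested.

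The modest falls named by the same rule included Wdr46, Arhgap25, Soat1, Kdm7a, Tiparp, Slc44a2, Heatr1, Hgsnat and Chchd6, with differences from -0.69 to -0.89. Wdr46, a nucleolar protein of small ribosomal subunit assembly, stood at 0.71, 0.43, 0.09 and -0.14 in mature arrays 1, 6, 2 and 8 and at 1.34, 1.65, 0.77 and 0.73 in immature arrays 3, 5, 4 and 7. It fell by 0.85 ± 0.15 (adjusted p = 0.00596, limma) and the 2 states did not overlap. Heatr1, another factor of that assembly, stood at 1.31, 1.24, 0.55 and 0.79 against 2.08, 2.15, 1.22 and 1.40. Its states overlapped across subsets, because the Sirpa-positive arrays were higher throughout, and not within them. It fell by 0.74 ± 0.14 (adjusted p = 0.00755, limma).

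Hgsnat, the lysosomal acetyltransferase of heparan sulfate breakdown, fell by 0.69 ± 0.13 (adjusted p = 0.00784, limma), with subset differences of -0.69 and -0.68 and a 95% interval for their difference from -0.64 to 0.63. Soat1, which stores cholesterol as esters, stood at 0.87, 0.65, 0.29 and -0.08 in mature arrays 1, 6, 2 and 8 and at 1.70, 1.69, 0.95 and 0.72 in immature arrays 3, 5, 4 and 7, and fell by 0.83 ± 0.15 (adjusted p = 0.00701, limma). Chchd6, a subunit of the complex that shapes mitochondrial cristae, fell by 0.89 ± 0.17, and Arhgap25, a Rac-inactivating protein of phagocytes, by 0.77 ± 0.14 (adjusted p = 0.00794 and 0.00639, limma). Slc44a2, a choline transporter, fell by 0.77 ± 0.14 and the demethylase Kdm7a by 0.82 ± 0.15 (adjusted p = 0.00743 and 0.00715, limma). Tiparp, an ADP-ribosyltransferase induced by the aryl hydrocarbon receptor, fell by 0.80 ± 0.15 (adjusted p = 0.00715, limma), and by 0.30 without passing (adjusted p = 0.512, limma) when all of its probes were averaged, so its probes disagreed.

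**Figure D2:**
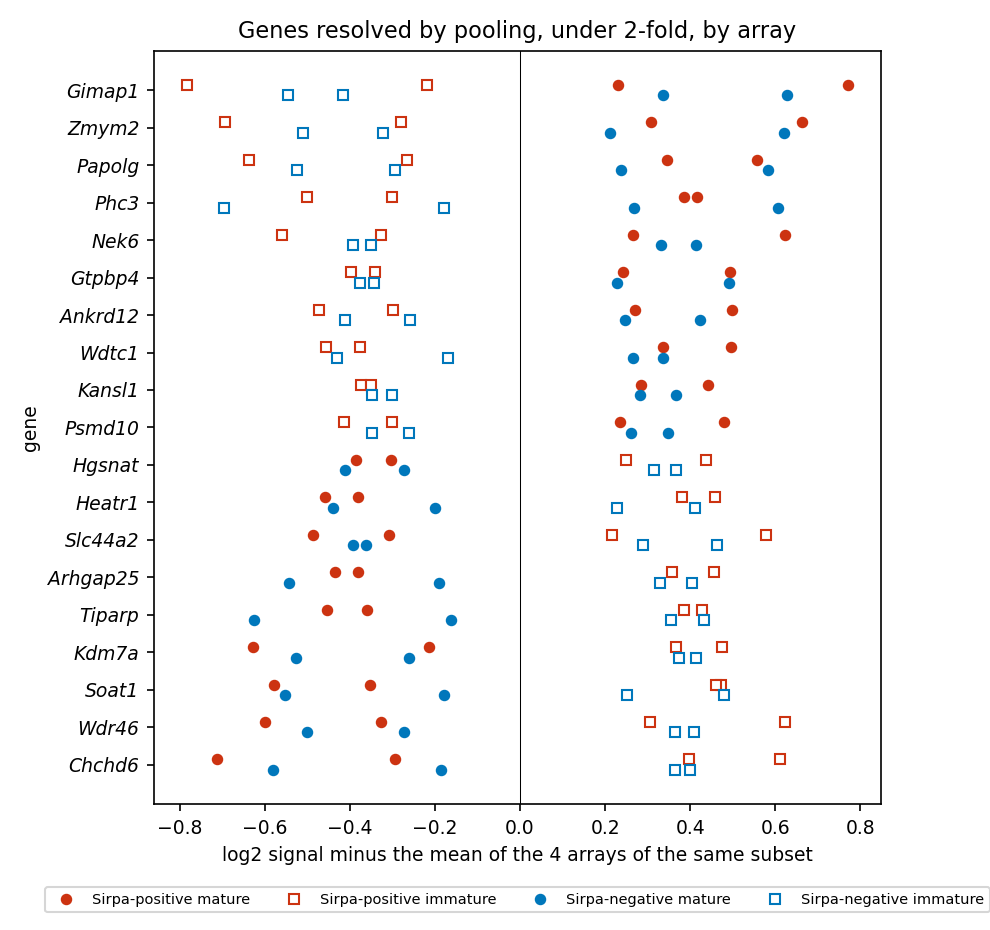
The named modest changes, one gene per line: each marker is 1 array, placed at its log2 level minus the mean of the 4 arrays of its subset, filled for mature and open for immature cells, red for Sirpa-positive and blue for Sirpa-negative cells. In every line the mature and immature arrays of a subset fall on opposite sides of 0; the rule that chose these genes required that they not overlap.

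The larger changes that neither subset resolved were fewer, and the rule found 54 candidates, 18 risen and 36 fallen. Itm2a, a membrane protein of developing thymocytes and T cells, stood at -1.32, -0.35, -0.62 and -0.90 in mature arrays 1, 6, 2 and 8 and at -2.94, -2.06, -2.13 and -2.15 in immature arrays 3, 5, 4 and 7, and rose by 1.52 ± 0.27 (adjusted p = 0.00594, limma). The fucosyltransferase Fut4 rose by 1.22 ± 0.24, the chromodomain protein Cdyl2 by 1.26 ± 0.26 and the defensin Defb25 by 1.44 ± 0.30, and Rps23rg1 rose by 1.06. Cyclin A2 (Ccna2), which drives DNA synthesis and entry into mitosis, stood at -1.59, -0.90, -1.13 and -0.50 in the mature arrays and at -0.23, 0.49, 0.43 and 0.50 in the immature arrays, and fell by 1.32 ± 0.24 (adjusted p = 0.00669, limma). Egr2, a transcription factor of myeloid and T cells, fell by 1.05 ± 0.19, and the orphan receptor Gpr34 by 1.19 ± 0.22 (adjusted p = 0.00639 and 0.00742, limma). The falls of Plekhm3 (-1.05), the histone gene H2ac4 (-1.03) and Ramp1 (-1.04), a coreceptor for calcitonin gene-related peptide, completed the 6.

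Beyond the members of smallest p, further genes of the lists are named below after their values were seen, for their known roles: Mki67, Prc1, Cdc20, Ccnf, Kif22, Ube2c, Cdc6, Mcm6, Hspa5, Xbp1, Sqle, Srebf2, Insig1, Tab3, Nfkb1, Tap2, Cpt1a, Etfb, Scd1, Acaca, Elovl6, Scd2, Cd3e and Lck. Gene lists were read against the shares of all genes that rose (10.3%) or fell (10.4%). Of the 19003 genes well above background on all 8 arrays, 2116 rose and 2613 fell, which is a larger share of falls. Mitosis and DNA replication held the highest shares of falls. Of 54 mitotic genes 45 fell and none rose, with a median of -1.01 where all genes had 0.02; 9 of the 45 were modest shared changes. The subset comparisons called 23 falls in Sirpa-positive and 24 in Sirpa-negative cells. Cdca3, a trigger of mitotic entry, stood at -0.26, -0.06, 0.31 and 0.16 in mature arrays 1, 6, 2 and 8 and at 0.98, 1.23, 1.33 and 1.49 in immature arrays 3, 5, 4 and 7. It fell by 1.22 ± 0.14 (adjusted p = 0.000923, limma), and the 2 states did not overlap. The centromeric histone Cenpa fell by 1.34 ± 0.15 and the central spindle kinesin Kif23 by 1.70 ± 0.18 (adjusted p = 0.000925 and 0.000635, limma). The proliferation marker Mki67 fell by 0.77 ± 0.15 (adjusted p = 0.0081, limma), and Prc1, which bundles the spindle midzone, by 0.95 ± 0.18, a modest shared change. Leaving out any 1 array left 37 to 44 falls. In RNA of a cell population, fewer cycling cells and less of these RNAs per cell cannot be told apart.

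Of 46 DNA replication genes 31 fell and none rose, with a median of -0.90. Dut, which keeps uracil out of DNA, stood at 0.86, 1.12, 1.84 and 1.81 in the mature arrays and at 2.11, 2.06, 3.05 and 3.11 in the immature arrays, in the order above. It fell by 1.18 ± 0.13 (adjusted p = 0.00091, limma). Mcm10, a factor of replication initiation, fell by 1.25 ± 0.13 and the ribonucleotide reductase subunit Rrm2 by 1.20 ± 0.15 (adjusted p = 0.000706 and 0.00125, limma). The licensing factor Cdc6 fell by 1.84 ± 0.24 (adjusted p = 0.00153, limma). Leaving out any 1 array left 24 to 34 falls. Of 49 DNA repair genes 17 fell and 6 rose, with a median of -0.30; Fanci (-1.46), Parp1 (-1.03) and Bard1 (-1.06) fell, and Rad51b (1.78), Rad50 (1.21) and Xpa (0.67) rose. The falls numbered 8 to 16 with 1 array left out, and fewer than 12 without array 1, 4, 5, 7 or 8 in turn.

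Promoter letters were counted over all tested members of the mitosis and replication lists, whichever way they moved. The shares therefore describe the lists as chosen and do not bear on maturation. Motifs were searched on both strands in the 300 bases from 250 before to 50 after each RefSeq start (GRCm38.p6): TTTGAA, the core of the cell cycle homology region (CHR), and CCAAT. Promoters were found for 45 of the tested mitotic genes, fallen or not (48 promoters). Of these promoters 72.9% held TTTGAA, 72.9% held CCAAT and 62.5% held both. The shares were 12.7%, 37.6% and 5.15% in the 13990 promoters of the genes tested. For the replication genes the letters TTTCCCGC or TTCGCGC, bound by E2F factors, were in 29.8% of 47 promoters against 4.49%. Among the modest falls the shares were 13.7% for TTTGAA, 46.3% for CCAAT and 7.05% for the E2F letters, and among the modest rises 11.9%, 33.5% and 4.09%. A match is a description of these letters and not evidence of binding. The promoters of 4 fallen mitotic genes and 2 fallen replication genes are shown because both motifs, or the E2F letters, lie in the 250 bases before their starts; the TTTGAA and CCAAT letters of the mitotic genes and the E2F letters of the replication genes, on either strand, are in capitals, and the sequences run 5′ to 3′ on the gene's strand. They are Cdc20 at chr4:118437344-118437593 (minus), Ccnf at chr17:24251410-24251659 (minus), Kif22 at chr7:127042421-127042670 (minus), Ube2c at chr2:164769679-164769928 (plus), Cdc6 at chr11:98907901-98908150 (plus) and Mcm6 at chr1:128359706-128359955 (minus).
Cdc20: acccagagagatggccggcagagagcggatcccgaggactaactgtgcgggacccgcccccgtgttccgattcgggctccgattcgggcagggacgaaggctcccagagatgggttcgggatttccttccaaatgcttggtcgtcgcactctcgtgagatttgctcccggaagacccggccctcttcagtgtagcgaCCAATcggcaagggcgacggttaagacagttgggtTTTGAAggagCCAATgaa
Ccnf: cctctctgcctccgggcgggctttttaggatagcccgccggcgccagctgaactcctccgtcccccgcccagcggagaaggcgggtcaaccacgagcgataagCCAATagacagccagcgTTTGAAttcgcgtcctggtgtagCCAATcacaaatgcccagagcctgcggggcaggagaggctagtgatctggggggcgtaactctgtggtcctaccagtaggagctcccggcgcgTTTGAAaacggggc
Kif22: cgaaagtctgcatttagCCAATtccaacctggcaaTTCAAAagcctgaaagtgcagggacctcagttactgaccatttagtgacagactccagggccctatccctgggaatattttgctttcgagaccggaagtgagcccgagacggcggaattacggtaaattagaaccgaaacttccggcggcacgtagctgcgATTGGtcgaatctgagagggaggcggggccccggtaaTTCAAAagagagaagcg
Ube2c: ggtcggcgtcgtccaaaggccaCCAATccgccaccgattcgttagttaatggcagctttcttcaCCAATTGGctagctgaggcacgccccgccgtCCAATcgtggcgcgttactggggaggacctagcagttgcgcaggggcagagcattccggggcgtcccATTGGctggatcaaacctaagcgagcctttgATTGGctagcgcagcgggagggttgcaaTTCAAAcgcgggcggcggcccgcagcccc
Cdc6: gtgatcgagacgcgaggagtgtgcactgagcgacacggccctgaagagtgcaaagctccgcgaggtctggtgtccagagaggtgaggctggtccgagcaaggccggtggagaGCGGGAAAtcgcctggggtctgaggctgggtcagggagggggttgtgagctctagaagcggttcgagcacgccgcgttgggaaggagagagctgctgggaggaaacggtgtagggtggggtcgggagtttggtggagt
Mcm6: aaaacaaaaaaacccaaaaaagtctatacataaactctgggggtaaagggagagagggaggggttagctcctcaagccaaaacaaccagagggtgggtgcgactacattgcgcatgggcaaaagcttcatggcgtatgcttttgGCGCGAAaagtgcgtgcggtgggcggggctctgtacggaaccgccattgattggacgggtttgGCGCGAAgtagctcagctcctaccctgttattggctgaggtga

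These 6 genes fell in the pooled fit. Cdc20, the activator of the anaphase-promoting complex, fell by 1.40 ± 0.17, from 1.80, 2.18, 2.64 and 2.48 in immature arrays 3, 5, 4 and 7 to 0.39, 0.69, 0.98 and 1.42 in mature arrays 1, 6, 2 and 8. Ube2c, the ubiquitin-conjugating enzyme of that complex, fell by 1.34 ± 0.18, Kif22, a chromosome-arm kinesin, by 1.23 ± 0.16, and Ccnf, cyclin F, by 1.05 ± 0.14. Mcm6, a subunit of the replicative helicase, fell by 1.27 ± 0.19. In each of them every mature array was below every immature array of its own subset, which their choice among falls of small p favours. Of all genes tested, 31.2% moved in the same direction in both subsets without overlap within either.

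Many genes that build ribosomes fell, whereas few of those that encode ribosomal proteins passed. Of 39 ribosome biogenesis genes 23 fell and none rose, with a median of -0.74. Gtpbp4, the assembly factor named above among the modest rises, is not in this list. Polr1a, the largest subunit of RNA polymerase I, stood at -2.83, -2.76, -1.88 and -1.58 in mature arrays 1, 6, 2 and 8 and at -1.64, -1.20, 0.09 and 0.22 in immature arrays 3, 5, 4 and 7. It fell by 1.63 ± 0.18 (adjusted p = 0.000788, limma). Dkc1 and Gar1, protein partners of the small RNAs that guide pseudouridylation, fell by 1.39 ± 0.21 and 1.0 ± 0.15 (adjusted p = 0.00276 and 0.00305, limma). The subset comparisons called 1 of these falls in Sirpa-positive cells and 21 in Sirpa-negative cells, with median differences of -0.45 and -0.94. The difference between the subsets was not tested for the list. The count was 15 without array 5, 7 or 8 and 14 without array 2. Of 77 cytosolic ribosomal proteins 1 rose, Rps27 (0.53 ± 0.16, adjusted p = 0.0441, limma), and none fell. The list median was 0.01, and -0.10 to -0.01 in the other 5 normalizations, and Rps27 did not pass without array 1, 2, 3, 5, 6 or 7 in turn.

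Genes of translation and of splicing moved less than those of ribosome biogenesis. Of 52 translation factors and tRNA synthetases 10 fell and 1 rose, with a median of -0.28: the tRNA synthetases Vars (-1.10) and Dars (-0.92) and the initiation factor Eif2b3 (-1.13) fell, and the helicase Eif4a2 rose by 1.25 ± 0.15 (adjusted p = 0.00126, limma). Eif4a2 stood at 4.49, 4.72, 5.12 and 4.74 in the mature arrays and at 3.42, 3.18, 3.70 and 3.78 in the immature arrays. The falls numbered 5 without array 7. Of 56 spliceosome genes 9 fell and none rose, with a median of -0.33, among them Lsm2 (-0.77), Lsm7 (-0.69) and Prpf19 (-0.84). The median of that list was negative in the other 5 normalizations, at -0.28 to -0.44, and 4 or 5 falls were left without array 4, 5, 7 or 8 in turn. Over all alternatives the falls numbered 4 to 18.

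Of 34 genes of endoplasmic reticulum folding and stress response 11 fell and 2 rose, with a median of -0.41. The subset comparisons called none of the falls in Sirpa-positive cells and 11 falls in Sirpa-negative cells, and the difference between the subsets was not tested for the list. Syvn1, a ligase that degrades misfolded proteins, stood at 0.34, 0.28, 0.62 and 0.54 in mature arrays 1, 6, 2 and 8 and at 0.96, 1.04, 1.5 and 1.73 in immature arrays 3, 5, 4 and 7. It fell by 0.86 ± 0.14 (adjusted p = 0.00452, limma). The chaperone Hyou1 fell by 1.17 ± 0.21 and the disulfide isomerase Pdia4 by 1.19 ± 0.22 (adjusted p = 0.00711 for both, limma). Hspa5 (BiP), the main chaperone of the compartment, fell by 0.59 ± 0.17, and the transcription factor Xbp1 by 0.68 ± 0.17, both modest shared changes (adjusted p = 0.040 and 0.0234, limma). Against them Dnajb9 rose by 0.82 ± 0.19 and Ppp1r15a, which reverses the translation block of the stress response, by 1.15 ± 0.28 (adjusted p = 0.0169 and 0.0219, limma). Neither passed without array 1 or 5, nor Ppp1r15a without array 4 or 7. The 11 falls became 5 without array 7 and 7 without array 2, 4, 5 or 8, and 5 with no filter on dim probes or no Sirpa term. Of 42 genes of the translocon, coat proteins and Golgi 6 fell, among them the signal peptidase subunits Spcs2 (-0.82) and Spcs3 (-0.93) and the coat protein Sec24d (-0.89), and none rose; 3 falls were left without array 5.

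Respiratory chain genes passed at a share near that of all genes. Of 77 respiratory chain and ATP synthase genes 10 fell and none rose, which is 12.99% against 10.4% of all genes, and 63 of the 77 differences were negative, with a median of -0.21. Of the 10, 7 were modest shared changes. Ndufs8, a core subunit of complex I, stood at 1.94, 1.57, 1.54 and 1.49 in mature arrays 1, 6, 2 and 8 and at 2.29, 2.57, 2.70 and 2.18 in immature arrays 3, 5, 4 and 7, and fell by 0.80 ± 0.18 (adjusted p = 0.0157, limma). Ndufa6 of complex I fell by 0.56 ± 0.15 and Uqcr11 of complex III by 0.53 ± 0.14 (adjusted p = 0.0316 and 0.0318, limma). Ndufs8 did not pass without array 5, and the other 2 did not pass without array 1, 2, 4, 5, 7 or 8 in turn. The 10 falls became 0 without array 5, 1 without array 1, 2, 4, 7 or 8 and 5 without array 3. Blocking on slide row left 1 fall and testing all probes without a filter left 0, whereas there were up to 24 with normexp and quantile normalization. The median was -0.26 in the first slide row and -0.22 in the second, where the medians of all genes were -0.01 and 0.02, and it lay between -0.22 and -0.32 in the other 5 normalizations.

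Of 61 mitochondrial ribosome genes 12 fell and 4 rose, with a median of -0.33. Mrpl42 (-1.27), Mrpl35 (-1.02) and Mrps28 (-1.03) fell, and Mrpl14 (1.0), Mrpl13 (0.85) and Mrpl45 (0.76) rose, so the subunits of one particle moved both ways. Without array 4, 5, 7 or 8 there were 7 falls, and over all alternatives 6 to 21. Of 31 genes of the citric acid cycle and pyruvate entry 6 fell and 1 rose. Fumarase (Fh1) fell by 1.29 ± 0.15 and the mitochondrial isocitrate dehydrogenase Idh2 by 1.18 ± 0.17, while the cytosolic enzyme Idh1 rose by 2.29 ± 0.36 (adjusted p = 0.00114, 0.00252 and 0.0035, limma). Idh1 stood at 0.92 and 0.92 against -0.28 and -0.57 in Sirpa-positive cells and at 1.0 and 1.09 against -2.17 and -2.21 in Sirpa-negative cells, so the mature levels were alike and the immature levels were not.

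Of 23 glycolytic genes 8 fell and 2 rose, with a median of -0.46. The glucose transporter Slc2a3 fell by 1.46 ± 0.22, hexokinase Hk2 by 1.31 ± 0.21 and aldolase Aldoc by 1.12 ± 0.17 (adjusted p = 0.00288, 0.00412 and 0.00323, limma). Pfkfb3, which makes the activator of phosphofructokinase, stood at 5.36, 5.22, 6.06 and 5.72 in mature arrays 1, 6, 2 and 8 and at 3.54, 3.56, 3.24 and 2.68 in immature arrays 3, 5, 4 and 7, and rose by 2.33 ± 0.27; the enolase Eno2 rose by 2.95 ± 0.18 (adjusted p = 0.000943 and 8.13e-05, limma). Without array 5, 7 or 8 there were 3 falls, and without array 1, 2 or 4 there were 4. In fatty acid metabolism 9 of 33 genes fell and 4 rose. Genes of oxidation and of synthesis moved both ways. In oxidation Cpt1a (-0.95), Etfb (-0.91) and Acat1 (-0.75) fell, and Etfdh (1.48) and Decr1 (0.69) rose. In synthesis and desaturation Acaca (-0.71), Elovl6 (-1.33), Scd2 (-1.12), Fads1 (-1.18) and Fads2 (-1.30) fell, and Scd1 (0.99) rose. Acacb (0.70) was the remaining rise of the list. Without array 1, 4 or 5 there were 2 rises.

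Cholesterol synthesis held more rises than falls, unlike the metabolic lists above. Of 28 genes 12 rose and 2 fell, 42.9% against 10.3% of all genes for the rises, with a median of 0.32. The median was 0.16 in the first slide row and 0.46 in the second. Idi1, which isomerises the isoprenoid building block, stood at 2.50, 2.26, 2.42 and 2.12 in mature arrays 1, 6, 2 and 8 and at -0.53, -0.55, -0.81 and -0.66 in immature arrays 3, 5, 4 and 7. It rose by 2.96 ± 0.14 (adjusted p = 3.47e-05, limma), and the 4 arrays of each state lay close together in both subsets. Squalene synthase (Fdft1) rose by 1.25 ± 0.14 and Hsd17b7 by 1.74 ± 0.25 (adjusted p = 0.000958 and 0.0026, limma). Squalene epoxidase (Sqle) rose by 0.84 ± 0.17, a modest shared change (adjusted p = 0.0114, limma). The subset comparisons called 4 of the rises in Sirpa-positive and 7 in Sirpa-negative cells. The master regulator Srebf2 differed by -0.37 ± 0.16 and Insig1, which holds the pathway back, by -0.34 ± 0.16, and neither passed. Dhcr7 (-0.64) and Scap (-0.60), the falls, did not pass without array 2, 7 or 8 in turn, nor Scap without array 1, 4 or 5. With 1 array left out, 9 to 11 rises were left, and 5 with no Sirpa term.

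**Figure D3:**
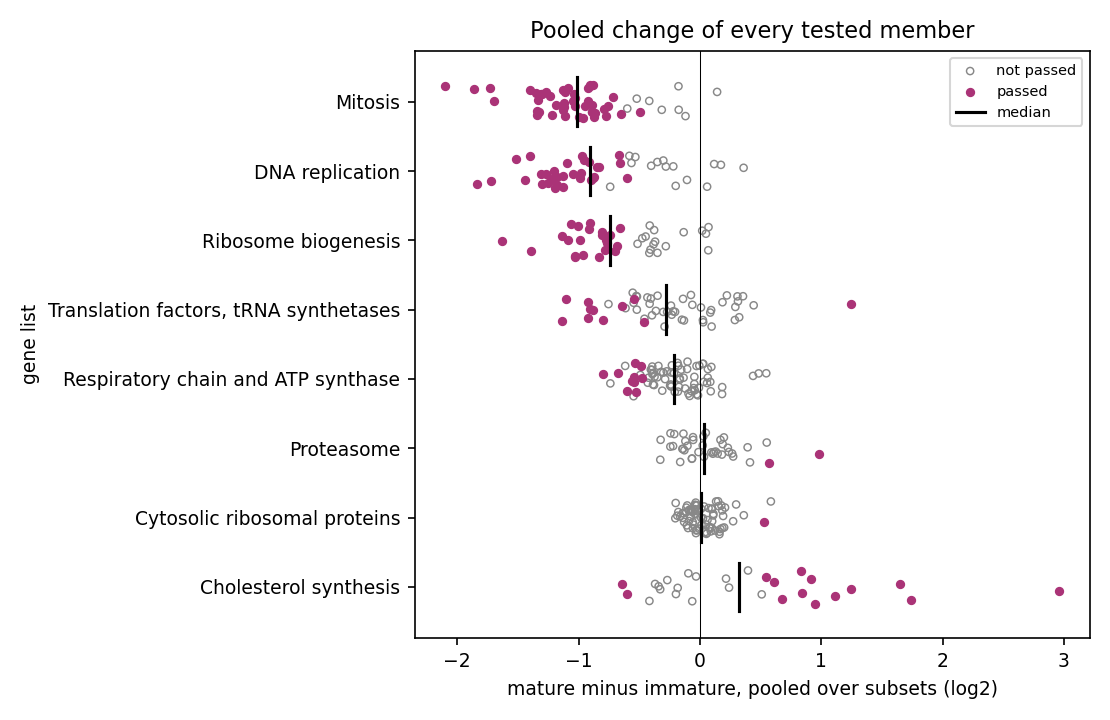
Pooled mature minus immature log2 difference of every tested member of 8 lists, with genes that passed filled, genes that did not pass open, and the list median as a bar. The medians run from -1.01 for mitosis through -0.21 for the respiratory chain and 0.01 for cytosolic ribosomal proteins to 0.32 for cholesterol synthesis.

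The list of maturation and migration genes stood at the other end of the range. Of its 32 genes 29 rose, none fell, and the same count was found with any 1 array left out. Like the other lists, it was chosen with earlier results of these data known, so this count is a description and not a test. Of 30 genes of CD40 and NF-kB signalling 19 rose and 1 fell, with a median of 1.0. Relb, the NF-kB subunit of the alternative pathway, stood at 4.61, 4.85, 4.83 and 4.79 in mature arrays 1, 6, 2 and 8 and at 2.14, 2.18, 1.81 and 1.38 in immature arrays 3, 5, 4 and 7, and rose by 2.89 ± 0.19 (adjusted p = 9.32e-05, limma). Its partner Nfkb2 rose by 1.43 ± 0.15, the inhibitor of apoptosis Birc2 by 2.87 ± 0.14 and the adaptor Traf1 by 2.38 ± 0.18. Among the smaller members Tab3, an adaptor of the kinase Map3k7, rose by 0.54 ± 0.13 and was a modest shared change (adjusted p = 0.0182, limma), whereas its relative Tab1 fell by 0.62 ± 0.15 (adjusted p = 0.0242, limma). Tab1 did not pass without array 1, 2, 4, 5, 7 or 8 in turn. Nfkb1 differed by -0.20 ± 0.16 and did not pass.

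Letters of NF-kB sites were looked for in the same way. GGGANNNCC or GGGNNTTCC, on either strand, lay in 31.2% of 32 promoters of the CD40 and NF-kB list, 62.5% of 16 promoters of cytokine and chemokine genes and 25.6% of the promoters of all genes tested, and in 24.5% of those of the modest rises. A palindromic match counts on both strands. The promoters of Birc2 (chr9:7837058-7837307, minus) and Nfkb2 (chr19:46304487-46304736, plus) are shown because their genes rose and hold these letters, in capitals.
Birc2: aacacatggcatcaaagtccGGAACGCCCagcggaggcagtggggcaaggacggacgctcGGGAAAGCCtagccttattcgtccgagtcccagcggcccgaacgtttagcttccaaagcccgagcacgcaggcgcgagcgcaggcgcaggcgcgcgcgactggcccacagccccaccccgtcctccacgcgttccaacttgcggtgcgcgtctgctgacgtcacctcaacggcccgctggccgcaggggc
Nfkb2: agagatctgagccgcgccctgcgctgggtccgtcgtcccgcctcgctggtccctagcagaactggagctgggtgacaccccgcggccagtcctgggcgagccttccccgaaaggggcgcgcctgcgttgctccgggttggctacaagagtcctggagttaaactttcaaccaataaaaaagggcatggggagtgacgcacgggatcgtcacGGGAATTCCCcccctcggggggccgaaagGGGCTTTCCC

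Among genes that present antigen and regulate T cells the shared change was selective. Of 21 genes of MHC class I presentation 6 rose and 1 fell, with a median of 0.39. The peptide editor Tapbpl rose by 1.71 ± 0.16, the class I regulator Nlrc5 by 1.40 ± 0.18 and tapasin (Tapbp) by 0.76 ± 0.15 (adjusted p = 0.000424, 0.00162 and 0.00995, limma). The peptide transporter subunit Tap2 rose by 0.55 ± 0.17, a modest shared change, and the insulin-degrading enzyme Ide fell by 0.67 ± 0.13 (adjusted p = 0.0496 and 0.0104, limma). Of 18 class II genes 3 rose and 3 fell. The editing chaperone chain H2-DMa stood at 6.31, 6.25, 6.02 and 5.93 in mature arrays 1, 6, 2 and 8 and at 6.77, 6.92, 6.95 and 6.68 in immature arrays 3, 5, 4 and 7, and fell by 0.70 ± 0.14 (adjusted p = 0.0107, limma). H2-DMb1 fell by 0.53 ± 0.15 and H2-Ob, an inhibitor of H2-DM, by 0.70 ± 0.16, while the chain H2-Eb2 rose by 3.22 ± 0.19. H2-DMb1 and H2-Ob did not pass without array 1, 2, 4 or 5 in turn, nor H2-DMb1 without array 7 or 8.

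Of 28 genes for mediators of regulatory T cell support, 20 rose and 2 fell, with a median of 2.45; 12 rises were left among the genes well above background on all 8 arrays. Ccl22, which attracts cells that bear Ccr4, rose by 6.01 ± 0.50 and Cd200, an inhibitory ligand, by 3.78 ± 0.24 (adjusted p = 0.000254 and 8.35e-05, limma). Cd70, a costimulatory ligand, stood at 0.66, 0.79, 2.16 and 1.58 in mature arrays 1, 6, 2 and 8 and at -4.54, -3.98, -3.92 and -3.65 in immature arrays 3, 5, 4 and 7. It rose by 5.32 ± 0.23 (adjusted p = 2.32e-05, limma), with a signal above background on 2 of the 4 immature arrays. Tgfb1, the cytokine that induces Foxp3 in peripheral T cells, fell by 1.06 ± 0.16 (adjusted p = 0.00281, limma), from 2.29, 2.55, 2.36 and 2.15 in immature arrays 3, 5, 4 and 7 to 1.48, 1.66, 1.02 and 0.96 in the mature arrays. Lgals9 fell by 0.75 ± 0.18, a modest shared change that did not pass without array 2, 3, 4 or 5 in turn. Of 18 costimulatory and coinhibitory ligands 9 rose and 2 fell; Cd80 rose by 1.71 ± 0.19 (adjusted p = 0.00091, limma), and Vsir (VISTA), a coinhibitory ligand, fell by 1.09 ± 0.13 (adjusted p = 0.00126, limma). Without array 3, 4 or 5 there was 1 fall. Cd86 differed by 0.36 ± 0.20 and did not pass.

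Genes of uptake, sensing and traffic moved in both directions. Among all genes 10.3% rose and 10.4% fell. The counts of the clathrin and lysosome lists and the autophagy and Rab falls lay near those shares. Of 25 Toll-like receptors and adaptors 7 fell and 2 rose, with a median of -0.42; the flagellin receptor Tlr5 fell by 1.46 ± 0.24, the adaptor Tirap by 0.94 ± 0.18, and Ly96, the partner of Tlr4, rose by 1.49 ± 0.16; 1 rise was left without array 2, 3, 4, 6, 7 or 8. Of 33 genes of clathrin and endocytic uptake 5 fell and 2 rose, with the adaptor Dab2 (-2.39), the scavenger receptor Scarb1 (-1.59) and Hip1 (-1.22) among the falls. Of 46 lysosome genes 6 rose and 6 fell. The proton pump subunit Atp6v0a1 (1.66), the glucosidase Gaa (1.47) and cathepsin H (Ctsh, 0.92) rose and the hydrolase Ppt1 (-0.96) was among the falls; rises numbered 1 without array 2, 4, 7 or 8 and 2 without array 5, and falls numbered 3 without array 1, 2 or 4. Of 36 autophagy genes 6 rose, among them the receptor Sqstm1 (1.46 ± 0.20), and 3 fell, Atg3, Atg7 and Vmp1, all modest shared changes of -0.55 to -0.63. The rises numbered 3 without array 2, 4, 7 or 8, and the falls 0 without array 7 and 1 without array 1, 2 or 5. Of 39 Rab GTPases 8 rose, led by Rab8b (1.62), Rab21 (1.59) and Rab9 (2.25), and 5 fell, led by Rab19 (-1.10).

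Of 46 genes of actin assembly and migration 5 rose and 3 fell, near or below the shares of all genes (10.3% risen, 10.4% fallen). The bundling protein fascin (Fscn1) rose by 4.49 ± 0.40, the myosin Myo1g by 1.77 ± 0.14 and the GTPase Rhoc by 1.36 ± 0.19, while Evl (-1.28), Was (-0.95) and Coro1a (-0.72) fell. Rises numbered 3 without array 5. Of 34 genes of the Bcl2 and caspase families 12 rose and 4 fell, with the survival factor Bcl2l1 at 2.02 ± 0.21 and the caspases Casp6 (-1.73) and Casp2 (-1.55) among them. Of 35 interferon-stimulated genes 6 rose and none fell, among them Irf1 (2.38 ± 0.23) and Isg15 (0.81 ± 0.14), and 4 to 8 rose with any 1 array left out. Of 40 proteasome genes 2 rose, Psme2 (0.98 ± 0.19) and Psmd4 (0.57 ± 0.15), and none fell; the list median of 0.03 turned to -0.07 under median scaling, and Psmd4 did not pass without array 2, 3, 4, 5, 7 or 8 in turn.

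**Figure D4:**
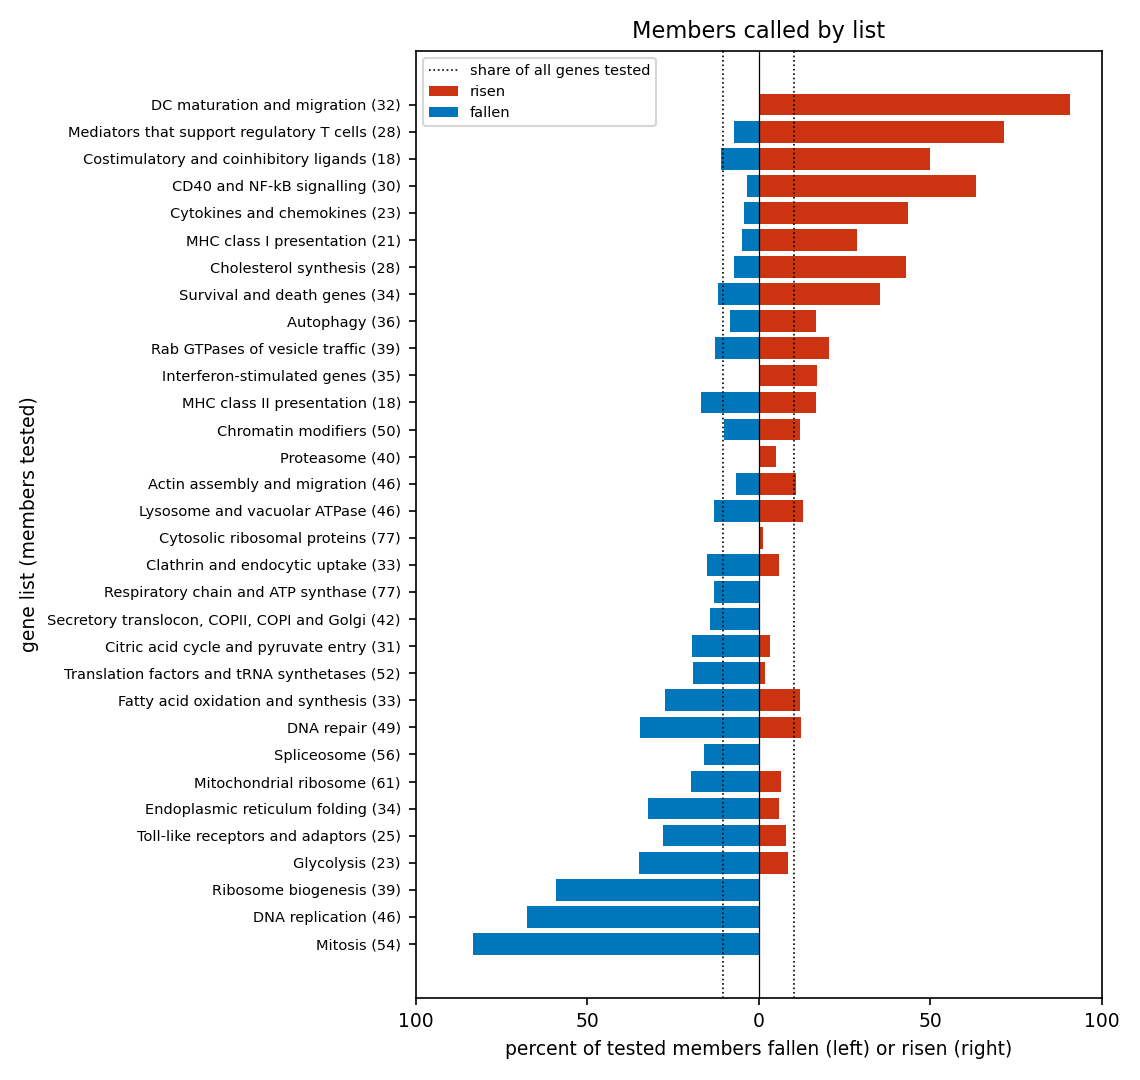
Percent of the tested members of 32 gene lists that rose (right, red) or fell (left, blue) in the pooled fit, ordered by list median, with the number tested in brackets. Dotted lines mark the shares among all genes tested, 10.3% risen and 10.4% fallen; mitosis, DNA replication and ribosome biogenesis reach furthest to the left, and maturation and regulatory T cell mediators furthest to the right.

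Regulators and a marker of the subsets are given with their differences in each subset. None of them differed between the subsets after adjustment. Irf4, a factor of the Sirpa-positive lineage, stood at 1.95 and 1.97 in Sirpa-positive mature against 1.52 and 1.84 in immature arrays, and at 0.97 and 0.49 in Sirpa-negative mature against -2.73 and -3.06 in immature arrays. Its pooled difference was 1.95 ± 0.61 and did not pass (adjusted p = 0.056, limma), and it passed without array 5 (adjusted p = 0.0448) or array 6 (adjusted p = 0.0467). The subset differences were 0.28 and 3.62 and differed by -3.35 (95% interval -4.17 to -2.52; adjusted p = 0.0703, limma, and no gene was lower). Irf8, a factor of the Sirpa-negative lineage, differed by 0.10 ± 0.34 pooled, from 0.94 in Sirpa-positive and -0.75 in Sirpa-negative cells. Xcr1, a chemokine receptor that marks the type 1 lineage, fell by 1.09 ± 0.22 (adjusted p = 0.00999, limma), from 2.28 and 2.23 to 0.88 and 0.87 in Sirpa-negative cells; it was not well above background on the mature Sirpa-positive arrays. Over all genes, none differed between the subsets after adjustment in limma, and 1952 (8.08%) had an unadjusted p under 0.05.

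Markers of other cells moved with maturation. Of 26 thymocyte and T cell markers 19 rose and none fell, with a median of 1.15, and 22 to 26 of them were well above background on each array. Their summed level was 75.6 to 114 times the 75th percentile in the mature and 41.1 to 57.6 times in the immature arrays, without overlap. Cd3e rose by 0.95 ± 0.16, Lck by 0.95 ± 0.17 and Thy1 by 1.37 ± 0.14, and the factor Tcf7 by 3.09 ± 0.26. Cd8a, a member of that list, is also known on a subset of dendritic cells. Of 12 thymic epithelial markers 5 rose, among them the tolerance regulator Aire (2.57 ± 0.26), the Notch ligand Dll4 (2.67 ± 0.39) and Pax1 (1.11 ± 0.18), and 3 rises were left without array 2 or 7. The summed level of that list, 235 to 315 in mature and 241 to 300 in immature arrays, is nearly all the signal of Trp63, which stood at 7.78 to 8.22 on the log2 scale. Of 21 macrophage and monocyte markers 4 fell, among them Adgre1 (-0.82) and Ccr2 (-2.05), and none rose. With any 1 array out, 2 or 3 falls were left. Ccr2 and Csf1r (-0.55), another of the 4, are also in the list of type 2 dendritic cell markers. The summed level was 21.5 to 465 in mature and 17.0 to 715 in immature arrays. Plasmacytoid dendritic cell markers moved both ways, with 5 falls and 3 rises, where 10.4% of all genes fell and 10.3% rose. Klk1 (-3.38), Lair1 (-1.41) and Smim5 (-1.72) were among the falls. Atp1b1 (1.86), Spib (1.83) and Runx2 (1.34) rose. Klk1 differed by -2.30 in Sirpa-positive and by -4.46 in Sirpa-negative cells. Over all alternatives the falls numbered 3 to 7 and the rises 1 to 4. The part of the markers of all these lists in the changes described above was not tested. The rises of Gimap1 and Itm2a had the direction of the T cell markers.

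**Figure D5:**
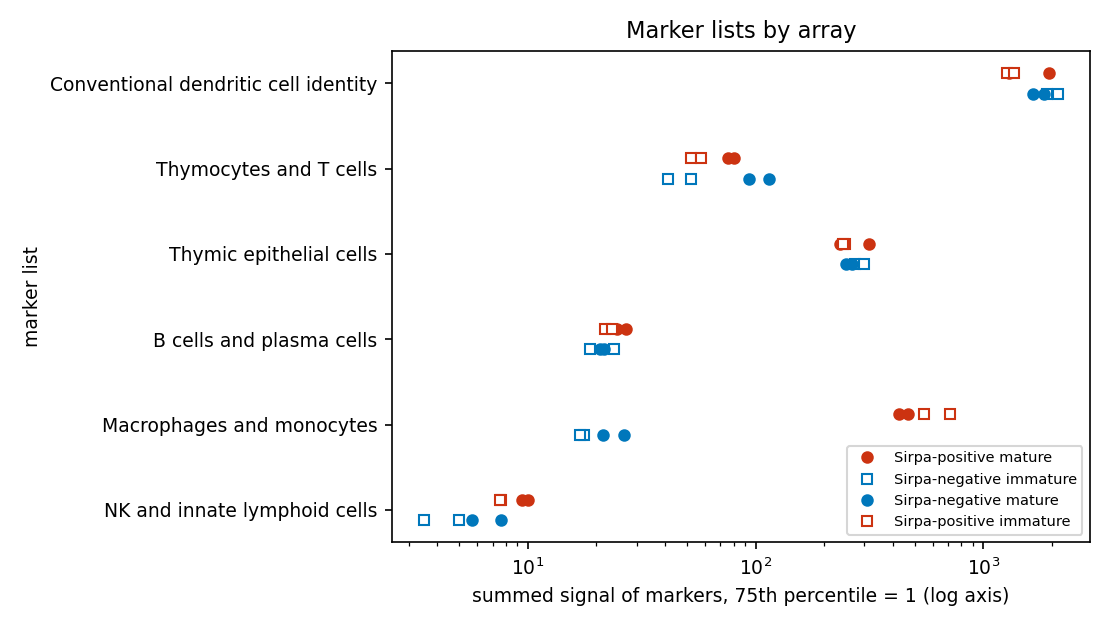
Summed signal of the tested markers of 6 cell types on each array, on a log axis in units of the array's 75th percentile, filled for mature and open for immature cells, red for Sirpa-positive and blue for Sirpa-negative cells. Thymocyte and T cell markers lie higher on all 4 mature arrays (75.6 to 114) than on all 4 immature arrays (41.1 to 57.6), and macrophage markers separate the subsets; the epithelial sum is nearly all Trp63.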

How the data were processed

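Total RNA of sorted thymic dendritic cells was labelled with Cy3 and read on 8 one-colour Agilent arrays, per the labels. Per the file headers, the deposited values are processed signals, background-subtracted intensity on a linear scale, from Feature Extraction 10.7.3.1, whereas the submitters' processing notes name version 10.5. A table of log2 values that the authors deposited for the same arrays served as an alternative.

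Here log2 of the processed intensity was scaled to the 75th percentile of each array. Control and outlier spots were left out, duplicate spots averaged, and a probe was kept if some group had it well above background on each of its 2 arrays (33715 probes). The probe of highest mean stood for a gene. limma 3.58.1 in R 4.3.3 (lmFit, eBayes) was fitted with maturation and Sirpa status as additive terms, and with 4 group means for the subset comparisons and their difference, all two-sided with Benjamini-Hochberg adjustment. The scripts were tested on simulated data. Of 55681 probes, 26582 were named through the platform and RefSeq tables; other genes keep the accession. Promoter sequences are from RefSeq (GRCm38.p6). The normexp alternatives (offset 50) used median spot and background signals, in place of the planned mean signal, which was not used here.

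The rule, the gene lists and the markers were chosen with earlier results of these data known. Genes were named as follows: the 10 modest changes of smallest p in each direction, the 6 of 2-fold or more, up to 3 risen and 3 fallen members of each list by p, and fixed genes of maturation and subset identity. Some genes that this rule selects are not reported here.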

Additional observations from a re-analysis of the deposited data

Results flagged for a closer look

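Irf8, a transcription factor of the Sirpa-negative lineage, drew attention because the arrays of the 2 subsets moved in opposite directions. Its maturation difference in Sirpa-positive minus that in Sirpa-negative cells was 1.69 on the log2 scale (95% interval 0.87 to 2.50), which did not pass after adjustment over all genes (adjusted p = 0.154, limma). Sirpa itself drew attention for the same reason, with lower levels on both mature Sirpa-positive arrays and higher levels on both mature Sirpa-negative arrays. That difference was -2.003 (95% interval -2.75 to -1.26; adjusted p = 0.0946, limma). Of all genes tested, 774 (3.20%) moved in opposite directions in the subsets with no overlap of mature and immature arrays within either, and 7533 (31.2%) moved in the same direction without overlap.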

How the results depend on the processing

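The count of all genes that passed was 4985. It was 3098 with no filter on dim probes, 2752 with no Sirpa term, and 3398 to 5085 with 1 array left out. The count of modest shared changes was 1192. It was 774 with no filter on dim probes, 329 with no Sirpa term, 1808 with array weights, 336 with the limit set at 1.5-fold, and 610 to 1484 with 1 array left out. Of the 1192 genes, 268 to 762 still passed with 1 array left out. No gene chosen by the naming rule that passed changed sign under the alternatives run. No replicate number recurs in another group, so the numbers pair no samples, but each slide row and each set of title numbers holds 1 array of every group. With the slide row as a block 4133 genes passed and 1150 were modest, and 610 of the 1192 still passed. With title-number sets as a block 5337 passed and 1208 were modest, and 1111 of the 1192 still passed. Over all alternatives the falls numbered 14 to 26 in ribosome biogenesis, 5 to 17 in translation, 3 to 12 in the secretory list, 3 to 12 in glycolysis, 8 to 18 in DNA repair, 23 to 34 in DNA replication and 34 to 48 in mitosis. The number of arrays limits the precision, and the cause of these shifts was not tested.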
